A study of Homo sapiens with 44 samples.

Results

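Of the 407383 peaks in which ATAC-seq coverage was measured in the colon fibroblast line Ccd18-Co, 61889 (15.2%) were nearly closed. A peak was chosen when its coverage, as bases of read coverage per Mb of coverage that the library held in all peaks (coverage per Mb below), averaged under 0.4 over all 44 libraries. The choice was thus made on the same coverage that is described below, and no test was made of how low these peaks are. At the median library total, 0.4 is the coverage of 2.22 reads of 75 bases, and over all peaks the mean was 2.45 and the median 0.778. The other 345494 peaks served as the comparison. All peaks in the table are 500 bases wide. The study's methods use peaks of fixed width for single-cell ATAC-seq and of varying length for bulk libraries, and which set the table holds is not stated.

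ATAC-seq uses a transposase that inserts sequencing adaptors where DNA is accessible. Ccd18-Co is an established fibroblast line from human colon, so every library came from 1 line, and separate cultures are not stated in the labels. The 44 libraries made 11 groups of 4: unstimulated cells, and cells given IL-1β at 0.1 ng/ml or TNF, IFNα, IFNγ, OSM (oncostatin M), TGF-β1, IL-13, IL-6, IL-17A or IL-22 at 10 ng/ml. All cells, the unstimulated ones included, were starved of serum and kept in serum-free medium, and the stimulation lasted 24 h.

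Most regulatory DNA is open in only some cell types. Promoters rich in CG pairs tend to be open in nearly all cells, whereas enhancers far from genes are opened by the transcription factors of one lineage and are covered by nucleosomes elsewhere. Distal enhancers of glial, endothelial, neuronal, epithelial or immune genes are therefore sites that a fibroblast would usually keep closed. A bulk library cannot tell a site open in few cells from one slightly open in many.

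The DNA of 4 of the nearly closed peaks that a cytokine raised most is printed here as examples, and no count below depends on them. Each line gives the middle of the peak on the plus strand of hg38, written 5′ to 3′, and capitals mark matches, on either strand, to any of 18 short strings that were searched for. Those found in these lines were the strings of NF-kB (GGG and TTTCC with any 2 bases between), of interferon response elements (ISRE, TTTC and TTTC with any 2 bases between), of STAT factors (GAS, TTCNNNGAA), of RUNX (TGTGGT), PU.1 (GAGGAAG), TEAD (GGAATG), CDX (TTTATNG) and AP-1 (TGANTCA), where N is any base. A string is a match of letters and not a measured binding site, and some of the strings overlap each other.
LINC01036 peak, raised by TNF, chr1:186978591-186978791: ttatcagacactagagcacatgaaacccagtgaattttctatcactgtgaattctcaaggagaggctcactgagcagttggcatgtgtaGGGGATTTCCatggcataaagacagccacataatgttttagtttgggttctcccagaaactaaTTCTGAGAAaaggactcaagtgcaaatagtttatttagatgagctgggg
LINC00593 peak, raised by TNF, chr15:69868852-69869052: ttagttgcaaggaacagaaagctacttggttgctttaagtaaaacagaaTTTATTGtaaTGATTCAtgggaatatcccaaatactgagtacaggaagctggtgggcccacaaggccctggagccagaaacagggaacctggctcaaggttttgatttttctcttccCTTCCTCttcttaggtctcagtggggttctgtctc
ADAD1 peak, raised by IFNγ, chr4:122321958-122322158: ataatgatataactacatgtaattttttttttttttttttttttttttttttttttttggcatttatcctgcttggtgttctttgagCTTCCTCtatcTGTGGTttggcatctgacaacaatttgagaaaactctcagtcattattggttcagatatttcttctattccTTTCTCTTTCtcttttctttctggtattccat
TRIB2 peak, raised by TGF-β1, chr2:12655992-12656192: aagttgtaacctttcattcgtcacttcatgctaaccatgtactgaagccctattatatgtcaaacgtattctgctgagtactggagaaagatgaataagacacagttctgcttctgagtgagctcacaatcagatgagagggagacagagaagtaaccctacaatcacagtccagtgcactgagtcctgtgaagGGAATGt

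The LINC01036 stretch, an intron of the phospholipase gene PLA2G4A, held an NF-kB and a GAS string, and the LINC00593 stretch, outside any GENCODE gene, held an AP-1, a PU.1 and a CDX string. The ADAD1 stretch lay in an intron of BLTP1 and held an ISRE, a RUNX and a PU.1 string. The TRIB2 stretch, in an intron of the RNA gene MIR3681HG, held 1 of the searched strings, that of TEAD.

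A second set of stretches shows nearly closed promoter peaks at genes of other cell types. Where the middle of a peak overlapped an exon, the nearest stretch of the same length that overlapped none is given. JCHAIN encodes the joining chain of secreted IgA and IgM, CDH19 a cadherin of glial and Schwann cells, and KCNJ8 a potassium channel of pericytes.
JCHAIN promoter peak, chr4:70681819-70682019: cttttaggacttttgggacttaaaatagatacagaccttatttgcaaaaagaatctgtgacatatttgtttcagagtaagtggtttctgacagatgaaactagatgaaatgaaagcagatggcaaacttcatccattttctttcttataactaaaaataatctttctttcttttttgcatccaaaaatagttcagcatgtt
CDH19 promoter peak, chr18:66604139-66604339: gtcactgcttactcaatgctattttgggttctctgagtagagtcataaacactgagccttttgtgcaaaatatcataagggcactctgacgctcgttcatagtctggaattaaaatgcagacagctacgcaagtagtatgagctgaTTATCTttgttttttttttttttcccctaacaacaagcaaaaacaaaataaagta
KCNJ8 promoter peak, chr12:21775608-21775808: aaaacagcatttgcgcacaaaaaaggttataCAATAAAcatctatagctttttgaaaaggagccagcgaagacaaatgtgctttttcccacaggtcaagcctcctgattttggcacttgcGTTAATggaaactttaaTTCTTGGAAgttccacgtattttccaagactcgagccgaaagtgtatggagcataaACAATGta

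The stretch of JCHAIN held no CG pair, that of CDH19 held 3 and that of KCNJ8 held 6. Their GC content was 30.3%, 36.3% and 38.8%, in the same order. CDH19 held a GATA string (AGATAA), KCNJ8 a SOX (ACAATG), an HNF1 (GTTAAT), a CDX and a GAS string, and JCHAIN none of the 18.

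Coverage in all peaks ranged from 148.8 Mb in IL-6 replicate 4 to 823.1 Mb in IFNα replicate 2, and IL-6 replicate 4 covered the smallest share of the nearly closed peaks. Promoter peaks of the fibroblast list varied: the most covered one of COL1A1, a collagen chain, averaged 24.9 coverage per Mb, that of the fibrillin gene FBN1 24.0 and that of FN1 (fibronectin) 15.9, but that of VIM (vimentin) 1.62 and that of LUM 0.548, below the mean of all peaks. Peaks assigned to VIM and LUM outside the deposited promoter class reached 24.9 and 22.4. Leaving IL-6 replicate 4 out of the mean gave 62588 nearly closed peaks.

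The mean coverage of the nearly closed peaks had a median of 0.329, with the middle of the distribution between 0.280 and 0.367. Only 8 had no coverage in any library, near FAM124B, UGT2B28, HLA-DRB5, RNU105C, GDF6, FAM27C and ZNF564 and at 1 exonic site without a gene name, and the lowest with any coverage lay near RNVU1-19, LINC00623 and SRGAP2B. None was covered in all 44 libraries. A nearly closed peak lacked coverage in a median of 11 libraries, against 1 for the other peaks, and 31175 of them (50.4%) were covered in at least 33 libraries. The threshold cut through a continuous range: the peaks next inside it, near SRGAP1, DLC1 and DNMBP-AS1, had means of 0.399997 to 0.399999, and those next outside it, near LINC01554, SERTAD2 and MIR606, 0.400005 to 0.400013. The range held peaks that were not closed in every library, since the highest library of a nearly closed peak had a median of 1.21 and reached 4.02, and 1697 of them (2.74%) exceeded 2 in some library. A peak could therefore be raised by 1 cytokine and still be chosen, with a group mean of at most 4.4.

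**Figure D1:**
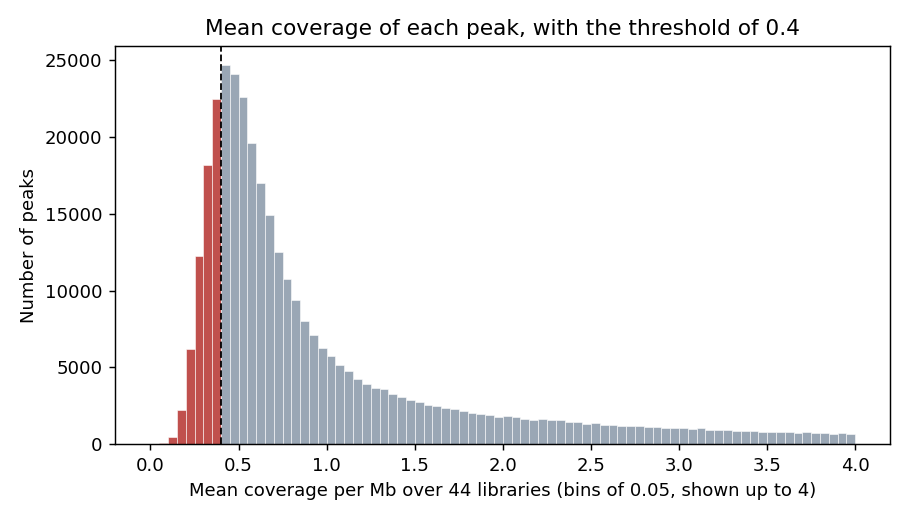
Number of peaks by mean coverage per Mb over the 44 libraries in bins of 0.05 up to 4, with the 61889 peaks under 0.4 in red and the dashed line at the threshold. The red bins are the lower flank of a single hump, with no gap at 0.4.

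Promoters were scarce among the nearly closed peaks. The deposited classes put 1.65% of them in promoters, 4.15% in exons, 53.9% in introns and 40.3% in distal sequence, against 8.13%, 7.17%, 51.3% and 33.4% of the other peaks. Read the other way, 3.50% of promoter peaks (1019 of 29109), 9.40% of exonic, 15.8% of intronic and 17.8% of distal peaks were nearly closed. The median distance to a GENCODE v44 transcript start was 13.2 kb against 6.02 kb, 16.6% against 7.26% lay more than 50 kb away, and the nearest start was that of a long non-coding RNA gene for 30.7% against 25.7%.

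The base composition of the nearly closed peaks differed more than any class. Their GC content was 39.6% ± 5.83 (SD over 61889 peaks) against 47.9% ± 9.45 in the other peaks. The nearly closed share fell with each step of GC content, from 42.8% of peaks under 35% GC through 17.4% at 40% to under 45% GC to 0.966% of peaks at 60% GC or more. An observed-to-expected CG ratio over 0.6, the usual mark of a CG island, was found in 1.59% against 9.58%. Within the class of 40% to under 45% GC, 8.13% of promoter, 16.7% of exonic, 17.8% of intronic and 17.7% of distal peaks were nearly closed, so the promoters stayed lowest while the exonic, intronic and distal shares drew together. Amplification and sequencing depend on GC content too, and the part of this in the low coverage of these peaks was not tested.

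**Figure D2:**
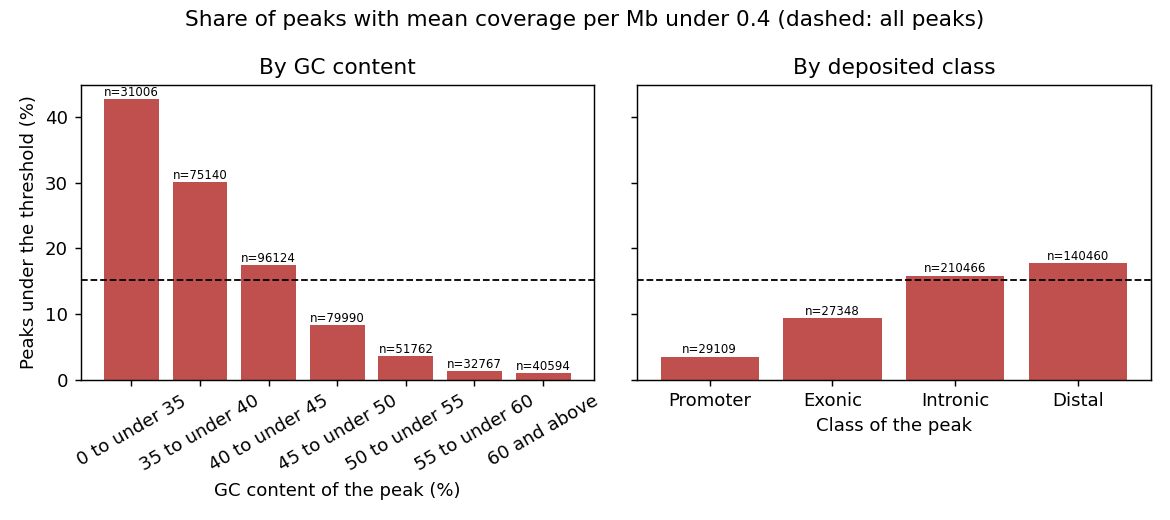
Share of peaks that were nearly closed, in %, by GC content of the peak (left) and by deposited class (right), with the number of peaks over each bar and all peaks (15.2%) as the dashed line. The share drops from 42.8% to 0.966% as GC content rises, and is 3.50% in promoters against 17.8% in distal peaks.

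Chromosome 13 (22.3%), X (22.0%), 4 (21.6%), 18 (21.0%) and 21 (20.0%) had the highest nearly closed shares of their peaks, and the gene-dense chromosomes 19 (3.99%), 22 (6.37%) and 17 (7.77%) the lowest. Nearly closed peaks lay next to each other: 53.0% had another nearly closed peak as a neighbour, against 21.0% of the other peaks. The longest unbroken runs were 26 peaks over 1496 kb of chromosome 11, of which 22 were assigned to LRRC4C, a synaptic adhesion gene, and 25 peaks within 39.4 kb of chromosome 18 assigned to CDH19. Runs of 24 lay at LINC01467 (365 kb), at LOC101928887 and LINC01515 (843 kb) and at MIR4675 and PLXDC2 (298 kb), and DSC3, a desmosomal cadherin of epithelia, had a run of 22.

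Short sequence strings followed the base composition. The homeobox string (TAATTA) stood in 22.3% of nearly closed peaks against 12.0% of the others and the GATA string in 34.1% against 23.8%, while the GC-rich strings of SP/KLF (GGGCGGG, 2.18% against 10.3%) and CTCF (AGGGGGC, 3.59% against 10.3%) were rarer. Within 40% to under 45% GC these gaps were small: 17.6% against 15.6% for the homeobox, 29.4% against 30.5% for GATA, 2.00% against 1.81% for SP/KLF and 4.07% against 4.43% for CTCF. The AP-1 string differed more within that GC class than over all peaks. It stood in 21.0% of the 16738 nearly closed peaks of that class against 31.8% of the 79386 others, and in 38.0% of those with a mean of 0.8 or more. AP-1, the dimer of FOS and JUN proteins, is known to hold open many fibroblast enhancers. The strings of FOX (TGTTTAC, 7.68% against 10.2%), TEAD (28.2% against 31.5%) and RUNX (31.0% against 33.7%) were also less frequent in nearly closed peaks of that class, by smaller margins.

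The deposited table names 23387 genes, of which 12344 had at least 1 nearly closed peak, and 198 had no other kind. The genes with the most were LINC02329 (101 of its 150 peaks), TEX41 (82 of 185), LINC01361 (79 of 96), MAF (76 of 151), TGFBR2 (69 of 182), LINC01467 (68 of 95), ZNF385D-AS1 (66 of 88), MIR3923 (64 of 180), QKI (64 of 178) and FOXP1-AS1 (61 of 195). They were of differing kinds. TGFBR2, which encodes a receptor subunit for TGF-β, also had peaks up to 35.2 coverage per Mb, and MAF, a transcription factor, up to 10.8, so many nearly closed peaks there stood beside open ones. LINC01361 and ZNF385D-AS1 by contrast had no peak above 0.601 and 0.520. Of the 8917 genes with 15 or more peaks, 40 had at least 80% nearly closed, among them CADM2-AS2 (18 of 19), OLFM3 (15 of 16) and the photoreceptor gene EYS (45 of 51). In 1441 of them no peak was nearly closed, among them COL5A1 (117 peaks), ZMIZ1 (101) and ACTN1 (72), a collagen chain, a transcriptional regulator and an actin crosslinker. Of families named by their symbols, peaks at keratin-associated protein genes were nearly closed in 24.7% (38 of 154), at LINC genes in 23.2% (6731 of 28956), at olfactory receptor genes in 19.7% (117 of 594), at collagen genes in 11.0% (206 of 1869) and at ribosomal protein genes in 10.4% (102 of 983).

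Peaks at genes of enteric glia were nearly closed most often and those at genes used by all cells least. Among 12 marker lists, the nearly closed share was 49.0% for glia (72 of 147 peaks), 20.0% for endothelium (171 of 855), 16.4% for neurons (37 of 226), 14.6% for mast cells (6 of 41), 13.7% for pericytes (28 of 204), 13.1% for epithelium (30 of 229), 11.3% for T and NK cells (45 of 400), 10.8% for B and plasma cells (13 of 120), 10.4% for smooth muscle (32 of 308), 10.3% for fibroblasts (75 of 727), 7.95% for myeloid cells (12 of 151) and 3.85% for the all-cell genes (5 of 130), beside 15.2% of all peaks. So 9 of the 12 lists, the 4 immune lists included, lay under the share of all peaks. Within 40% to under 45% GC, where all peaks had 17.4%, pericytes (8 of 29, 27.6%), neurons (12 of 49, 24.5%) and epithelium (7 of 34, 20.6%) lay above it. Glia and endothelium, given below, did so too. T and NK cells (14.0%), B and plasma cells (13.8%), myeloid cells (12.5%), smooth muscle (11.1%), fibroblasts (8.16%), mast cells (7.69%) and all-cell genes (5.26%) lay under it. Several peaks belong to 1 gene and neighbouring peaks are alike, so no test was made of these shares.

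The glial share rested on CDH19. It held 60 of the 72 nearly closed peaks, 60 of its own 71 were nearly closed, and its most covered peak averaged 0.538. Without it the glial share was 15.8%. ERBB3, S100B and FOXD3 had none, and SOX10, the master regulator of glia, had 1 of 10 and no peak above 0.910. The peaks of the glial list had a mean GC content of 43.2%, the lowest but 1 of the lists, and within 40% to under 45% GC 9 of 24 (37.5%) were nearly closed, beside 17.4% of all peaks in that class. The CDH19 peaks were not left out of this count.

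In the endothelial list 15 of 19 genes had a nearly closed peak. FLT1, a VEGF receptor, had 54 of 141, KDR, the main VEGF receptor of vessels, 21 of 83, TEK, the angiopoietin receptor, 17 of 50, SOX17 14 of 34 and PROX1, the transcription factor of lymphatic endothelium, 12 of 32. Not all of these loci were closed: FLT1 had a peak of 15.2 coverage per Mb, KDR of 14.0 and TEK of 36.3, while PROX1 had none above 0.912. Without FLT1 the share was 16.4%. FLT4, EGFL7, ROBO4 and SOX18 had no nearly closed peak. At 40% to under 45% GC, 52 of 220 endothelial peaks (23.6%) were nearly closed.

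Among neuronal genes SYT1, which encodes a calcium sensor of synaptic vesicles, had 5 of 18. Among epithelial genes LGR5, the intestinal stem cell marker, had 14 of 31, OLFM4 5 of 15, and SI, the sucrase of the brush border, all 3, but 15 of the 22 epithelial genes with peaks had none. The share for epithelium was 8.08% without LGR5. The pericyte list was led by RGS5 (11 of 60) and ABCC9 (9 of 20), which encodes the partner of the KCNJ8 channel, smooth muscle by SYNPO2 (15 of 58) and MYH11 (9 of 68), and mast cells by CPA3 (3 of 8) and KIT (2 of 21).

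Immune genes were covered unevenly. CD28 (9 of 49), PRF1 (5 of 36) and IL7R (5 of 31) led the T and NK list, FCRL5 (4 of 35) and JCHAIN (4 of 8) the B and plasma list, and MPEG1 (5 of 26) and MRC1 (3 of 14) the myeloid list. The macrophage receptor CSF1R had no nearly closed peak among 26 and reached 18.5 coverage per Mb, and the chemokine receptor gene CCR7 reached 42.9. The table assigns a peak to 1 gene, and peaks of a neighbour can carry such a name. Genes of the fibroblast list also had nearly closed peaks, led by the proteoglycan gene DCN (17 of 76) and FBN1 (9 of 90), while COL1A1 and VIM had none, and among the all-cell genes YWHAZ had 2 of 43 and ACTB 1 of 21. The median mean coverage was 1.56 for peaks of the fibroblast list, 0.603 for the endothelial and 0.406 for the glial list.

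**Figure D3:**
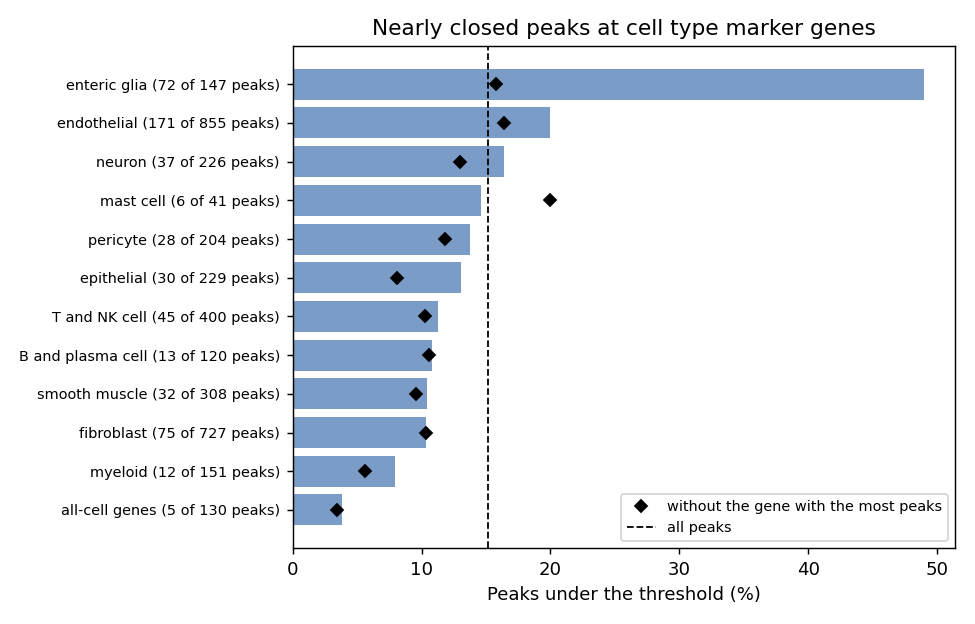
Share of the peaks at the genes of each marker list that were nearly closed, in % (bars, with the counts beside each name), the share without the list's gene with the most peaks (diamonds) and all peaks (15.2%, dashed line). The glial bar of 49.0% drops to 15.8% without CDH19, and the all-cell genes are lowest at 3.85%.

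Only 949 of 16766 genes with a promoter peak had a nearly closed one, and for 381 genes all promoter peaks were nearly closed. The marker lists held 13 such peaks. The lowest was that of JCHAIN, at chr4:70681669-70682169, whose mean was 0.197. Its 4 unstimulated libraries had 0.362, 0.345, 0 and 0.0362 coverage per Mb, and over all libraries it ran from 0 through a median of 0.178 to 1.03 in TGF-β1 replicate 4, with no coverage in 16 libraries. CLEC7A, the gene of the fungal glucan receptor Dectin-1 of myeloid cells, averaged 0.253, with 0.189 in unstimulated replicate 2 and nothing in the other three. CD28, the costimulatory receptor of T cells, averaged 0.312 at chr2:203706323-203706823 and had 0.542, 0.380, 0.980 and 0.404 when unstimulated. Values this low rest on few reads in a library.

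CDH19 averaged 0.323 at chr18:66603952-66604452, and its unstimulated libraries spread from 0 to 1.36. KCNJ8 averaged 0.327 at chr12:21775458-21775958, with 0.180, 0.191, 0 and 0.847. The others were the endothelial PROX1 (0.359 and 0.387), TIE1 (0.371) and TEK (0.389), the plasma cell receptor gene TNFRSF17 (0.369), the mannose receptor gene MRC1 (0.378), CD8B (0.399), and LUM (0.395), a fibroblast proteoglycan gene. The LUM peak lay 2132 bases from the nearest LUM start in GENCODE, beyond the 621 bases of the other LUM promoter peak, whose mean was 0.548. The TIE1 peak lay 1705 bases and the TNFRSF17 peak 735 bases from their starts. Promoter peaks of these genes at 161 and 139 bases averaged 0.497 and 0.715. Both PROX1 peaks lay nearest a start of PROX1-AS1, at 183 and 820 bases, and another PROX1 promoter peak averaged 0.912. A further MRC1 promoter peak averaged 0.574. No promoter peak of the epithelial, mast cell, neuronal, smooth muscle or all-cell lists was nearly closed. The lowest ones there averaged 0.525 for epithelium, 2.11 for mast cells, which had a single promoter peak, 0.510 for neurons, 0.447 for smooth muscle and 0.547 for the all-cell genes.

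The nearly closed peaks, 15.2% of all, held 2.08% ± 0.153 (SD, n = 4) of the coverage of the unstimulated libraries. The share was highest with TGF-β1, at 3.01% ± 0.352, where the 4 libraries (2.64%, 2.97%, 2.92% and 3.49%) lay above the 4 unstimulated ones (2.02%, 1.99%, 2.00% and 2.31%). It was lowest with OSM, at 1.02% ± 0.161, with all 4 libraries (0.904%, 0.870%, 1.07% and 1.22%) below them. The TNF (1.73% to 1.91%) and IL-22 (1.28% to 1.81%) libraries also all lay below the unstimulated ones. The 8 other cytokines averaged between 1.63% (IL-22) and 2.19% (IL-1β), and IFNα spread most, from 1.57% to 3.16%. In TGF-β1 and OSM libraries the concentration of coverage moved the other way: the top 1% of peaks held 11.8% to 13.1% of coverage in TGF-β1 libraries, 13.8% to 14.6% in unstimulated and 15.1% to 15.9% in OSM libraries. In TNF libraries it was 13.7% to 13.9%, overlapping the unstimulated range from below, although their share in nearly closed peaks was lower than unstimulated. This score was made over peaks chosen on the same coverage, so it has no test, and whether it reflects closed chromatin or the background of a library was not tested.

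**Figure D4:**
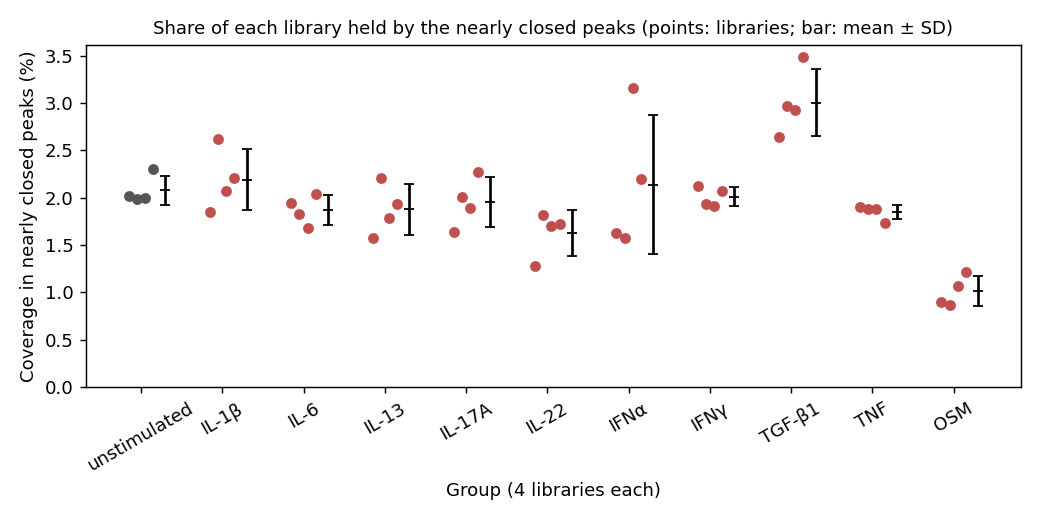
Share of a library's peak coverage, in %, that lay in the nearly closed peaks, with 1 point for each of the 4 libraries of a group and the mean ± SD beside them. TGF-β1 libraries (2.64% to 3.49%) sit above the unstimulated ones (1.99% to 2.31%), and OSM libraries (0.870% to 1.22%) below.

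Values over the nearly closed peaks of single genes are given as a description. They moved as the nearly closed peaks did as a whole, whose share was 2.08% unstimulated, 3.01% with TGF-β1 and 1.02% with OSM. All 9 genes examined so had a higher mean with TGF-β1 and a lower one with OSM, so the values do not single out any gene. The 60 nearly closed peaks of CDH19 averaged 0.315 ± 0.0565 coverage per Mb (SD, n = 4) in unstimulated libraries, 0.456 ± 0.0539 with TGF-β1 and 0.107 ± 0.0377 with OSM. The 54 of FLT1 averaged 0.293 ± 0.0378, 0.430 ± 0.0184 and 0.163 ± 0.0134, and the 101 of LINC02329 0.338 ± 0.0469, 0.478 ± 0.0728 and 0.141 ± 0.0403. The 17 of the fibroblast gene DCN averaged 0.339 ± 0.0973, 0.472 ± 0.0354 and 0.148 ± 0.0650. For DCN the TGF-β1 and unstimulated libraries overlapped.

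To ask which nearly closed peaks a cytokine changed, each cytokine was compared with the unstimulated libraries by limma across all 407174 peaks with log2 mean coverage above -3, which 61680 of the nearly closed peaks passed and 209 did not. Coverage was scaled by library total and a composition factor, 0.5 was added before the log2, and a call is a Benjamini-Hochberg adjusted p under 0.05. All 10 comparisons use the same 4 unstimulated libraries. The mean that chose the peaks includes these libraries, so a peak raised strongly in several groups was less likely to be chosen, and counts among the chosen are read only beside those of all tested peaks. A peak well covered when unstimulated could be chosen only if most other groups were lower. Its lowering by several cytokines is therefore partly built into the choice. A peak with 0 to 3 reads per library can rise visibly but has little room to fall, and log2 changes of such low values are smaller than the true ratio because of the 0.5 added.

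Every cytokine called a smaller share of the nearly closed peaks than of all tested peaks in both directions. TNF raised 75 nearly closed peaks (0.122% of those tested) and lowered 71 (0.115%), against 2.67% and 1.69% of all peaks. IL-1β raised 62 (0.101%) and lowered 22 (0.0357%), against 1.72% and 1.79%. IFNγ raised 73 (0.118%) and lowered 14 (0.0227%), against 1.48% and 0.275%. IFNα raised 10 and lowered 2, against 0.513% and 0.334%, and IL-13 raised 11 and lowered 21, against 0.73% and 0.88%. In either direction the cytokines called 4.37% (TNF), 3.5% (IL-1β), 1.75% (IFNγ), 0.847% (IFNα) and 1.61% (IL-13) of all peaks, beside 146, 84, 87, 12 and 32 nearly closed ones. No nearly closed peak was called for IL-6, IL-17A or IL-22 by limma, where 0.107% (0.0427% raised, 0.0643% lowered), 0.0398% (0.0329%, 0.00688%) and 0.0366% (0.0344%, 0.00221%) of all peaks were called in either direction. At an unadjusted p under 0.05 there were 3669, 2987 and 3551, which is 5.95%, 4.84% and 5.76% of those tested, against 8.65%, 6.45% and 7.15% of all tested peaks.

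TGF-β1 and OSM stood apart from the other cytokines in direction. TGF-β1 raised 551 nearly closed peaks (0.893%) and lowered 7 (0.0113%), against 1.98% and 1.52% of all peaks (558 in either direction, against 3.51%). OSM raised 3 (0.00486%) and lowered 175 (0.284%), against 1.55% and 1.29% (178 in either direction, against 2.85%). Their log2 changes were shifted as a whole: the median was 0.15 over all tested peaks and 0.25 over nearly closed ones with TGF-β1, and -0.22 and -0.30 with OSM. With a composition factor over all tested peaks the medians over all were 0.05 and -0.10, TGF-β1 raised 270 and lowered 9 nearly closed peaks, and OSM raised 8 and lowered 302. That scaling turned the split over all peaks too, from 8067 raised and 6206 lowered to 4487 and 11693 with TGF-β1, and from 6330 and 5257 to 16796 and 4291 with OSM, while TGF-β1 still mostly raised nearly closed peaks and OSM mostly lowered them. The library shares given above move with these counts, and their part in them was not tested. With only the 8 libraries compared, TGF-β1 called 209 and OSM 692, and with array quality weights OSM called 1161. Without TGF-β1 replicate 4, the library with the highest share, 360 peaks were called, and without unstimulated replicates 1, 2 or 3 there were 344, 297 and 262. OSM called 35, 44, 35 and 79 without its replicates 1 to 4 in turn, and 112 and 109 without unstimulated replicates 3 and 4.

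Counts for the remaining cytokines moved as well when 1 library was left out. TNF called 92 without unstimulated replicate 3, and 81, 88 and 87 without its own replicates 1, 2 and 3. IL-1β called 53, 52 and 47 without unstimulated replicates 1, 2 and 3, and 50 without its replicate 4. IFNγ called 57 and 53 without unstimulated replicates 2 and 3, and 55, 56 and 45 without its replicates 2, 3 and 4. IFNα called 7, 3 and 7 without unstimulated replicates 2, 3 and 4, 23 without its replicate 2, and 7 without its replicate 3 or 4. IL-13 called 20, 20 and 17 without unstimulated replicates 2, 3 and 4, and 8 without its replicate 2. IL-6 called 1 and 2 without unstimulated replicates 1 and 2, and 1, 6 and 1 without its replicates 1, 2 and 3, IL-17A 1 without its replicate 4, and IL-22 1 without unstimulated replicate 1.

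Peaks raised by IFNγ carried the interferon string more often than any other group of called nearly closed peaks with over 10 members. The ISRE string stood in 41 of the 73 (56.2%), in 43.8% of the 5952 other peaks that IFNγ raised, in 12.8% of all nearly closed peaks and in 9.13% of all peaks. With IFNα, the other interferon, it stood in 1 of the 10 nearly closed peaks raised, against 23.4% of the 2079 others raised. The NF-kB string stood in 27 of the 75 nearly closed peaks raised by TNF (36.0%), in 15.3% of the 10808 others that TNF raised, in 3.99% of nearly closed peaks and in 3.71% of all peaks. With IL-1β, which signals through NF-kB too, it stood in 2 of 62 nearly closed peaks, against 10.6% of the 6932 others raised. The AP-1 string was found in 24 of the 75 raised by TNF (32.0%) and 21 of the 62 raised by IL-1β (33.9%), where 54.6% and 56.2% of the other raised peaks held it. In the 551 raised by TGF-β1 it stood in 133 (24.1%), close to the 22.1% of all nearly closed peaks, against 56.1% of the 7516 other peaks that TGF-β1 raised. The GAS string stood in 16 of the 73 raised by IFNγ (21.9%), as in 21.8% of all nearly closed peaks. The mean GC content was 35.8% for the nearly closed peaks raised by IFNγ, 37.0% for TNF and 39.1% for TGF-β1. In the other peaks these cytokines raised it was 45.7%, 45.4% and 44.8%. The string shares of the raised peaks were not matched for GC content. These shares are descriptions of letters in peaks chosen by their level, and none was tested.

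TNF raised the LINC01036 peak (chr1:186978441-186978941) most. Its 4 TNF libraries had 2.29, 1.60, 1.16 and 1.52 coverage per Mb, and the unstimulated ones 0, 0.182, 0 and 0, so the groups did not overlap. The log2 change was 1.96 (SE 0.36, limma adjusted p-value 1.41e-05). No other cytokine was called there. In the LINC00593 peak (chr15:69868702-69869202) the TNF libraries had 1.93, 2.39, 0.879 and 1.77 against 0.180, 0, 0.228 and 0.0984, a log2 change of 1.80 (SE 0.36, limma adjusted p-value 7.6e-05).

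TNF lowered 2 intergenic peaks most. At the one assigned to NDFIP1 (chr5:142192992-142193492), a gene for an adaptor of ubiquitin ligases, the unstimulated libraries had 1.39, 1.14, 0.929 and 1.14, and TNF left coverage only in replicate 4, at 0.157. The log2 change was -1.62 (limma adjusted p-value 0.000726), and the same peak was lowered by TGF-β1 (-1.48, limma adjusted p-value 0.00395) and OSM (-1.34, 0.0164). The LINC01139 peak (chr1:238409897-238410397) fell by 1.41 on the log2 scale with TNF, by 1.37 with IFNγ and by 1.30 with OSM (limma adjusted p-value 0.0225). These comparisons share the unstimulated libraries.

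IL-1β raised a distal peak assigned to GJA1 (chr6:121725740-121726240), the gene of the gap junction protein connexin 43. No unstimulated library had coverage there, and the IL-1β libraries had 0.653, 0.856, 1.78 and 0.908. Set against a floor of 3 reads per unstimulated library, this is at least 1.89-fold higher, and the fitted log2 change of 1.58 (limma adjusted p-value 0.000226) depends on the 0.5 added. The next was a peak assigned to KLF4 (chr9:107946463-107946963), a transcription factor known from epithelial barriers, with 0.683, 0.867, 1.39 and 2.18 against 0.223, 0.0126, 0.0789 and 0.0284. Its log2 change was 1.54 (SE 0.35, limma adjusted p-value 0.00130), and with TNF it was 0.61 and not called. The KLF4 peak held both an AP-1 and an NF-kB string, whereas the GJA1 peak held an AP-1 string and none of NF-kB. IL-1β lowered an intronic LRRC4C peak (chr11:40291259-40291759) by 1.43 and an intronic HDAC9 peak that the table names MIR1302-6 by 1.40 on the log2 scale. Coverage was left in 1 of the 4 IL-1β libraries in each.

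IFNγ raised the ADAD1 peak (chr4:122321808-122322308) from no coverage in any unstimulated library to 1.13, 2.31, 1.38 and 1.16 coverage per Mb. That is at least 2.69-fold higher against the same floor (fitted log2 change 1.96, limma adjusted p-value 2.53e-05). The MRTFB peak, in an intron of a coactivator of serum response factor, had 1.41, 1.80, 1.76 and 1.40 with IFNγ and 0, 0.190, 0 and 0 without, a log2 change of 1.95 (SE 0.35). With IFNα the mean there was 0.795 and the log2 change of 1.21 was not called (limma adjusted p-value 0.071). The MRTFB peak held a GATA, a RUNX and a TEAD string, but neither an ISRE nor a GAS string. IFNγ also lowered a distal peak assigned to LOC100129603, from 1.14, 0.675, 0.680 and 1.15 to 0.167, 0, 0.0362 and 0, and OSM lowered it too (-1.28, limma adjusted p-value 0.0234).

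TGF-β1 raised a peak assigned to TRIB2 (chr2:12655842-12656342), a pseudokinase gene, from 0.353, 0, 0 and 0 to 1.20, 1.22, 1.84 and 1.52 (log2 change 1.75, SE 0.36, limma adjusted p-value 0.000217). A peak assigned to NYAP2 (chr2:225944986-225945486) had no unstimulated coverage and 2.13, 0.690, 0.968 and 0.879 with TGF-β1, at least 2.10-fold higher, and it was also raised by IL-1β (log2 change 1.15, limma adjusted p-value 0.0445). TGF-β1 lowered an intronic peak of CPXM2 by 1.31 on the log2 scale, as did OSM (-1.42, limma adjusted p-value 0.00798) and IL-13 (-1.35, 0.0202). Of the 526 nearly closed peaks tested at marker genes, TGF-β1 raised 4 (0.760%), beside 0.893% of all tested nearly closed peaks. They lay at SYNPO2, CDH19, RGS5 and PROX1. Their means were 0.852, 1.06, 1.00 and 0.911 with TGF-β1 and 0, 0.135, 0.0948 and 0.0714 without. The PROX1 peak was of the deposited promoter class and lay nearest a start of PROX1-AS1. No nearly closed peak at a marker gene was called for another cytokine.

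OSM lowered the same LRRC4C peak, which IFNγ lowered too (-1.33, limma adjusted p-value 0.0159), by 1.51 on the log2 scale, from 0.716, 0.918, 1.13 and 1.36 to 0.137 in replicate 1 and nothing in the rest, and an intronic peak of OTOF, the otoferlin gene of hair cells, by 1.46. OSM raised a peak at NAMPT, which encodes an enzyme of NAD synthesis (log2 change 1.41, limma adjusted p-value 0.0114), deposited as intronic and overlapping an exon in GENCODE. It also raised one in an intron of NFIA under the name NFIA-AS1 (1.20, 0.0475), which was not called with a pseudocount of 0.25, with median-of-ratios scaling or without any 1 of 7 of the 8 libraries. IL-13 raised peaks at LINC01449 (1.40) and in an intron of INPP4B, a lipid phosphatase gene (1.40), and lowered 1 assigned to MEF2A by 1.43. It also left no coverage in any library at an intronic CNOT2 peak named LINC01481, which had 1.15, 0.377, 0.701 and 1.30 when unstimulated. The INPP4B call was lost with only the 8 libraries compared, without unstimulated replicate 3 and without IL-13 replicate 2.

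IFNα raised a peak overlapping an exon of NOL10 (chr2:10654003-10654503), a nucleolar protein gene, from 0, 0, 0 and 0.136 to 1.35, 0.549, 1.00 and 1.39 (log2 change 1.53, limma adjusted p-value 0.00902), and 1 at LYPLAL1. TGF-β1 raised the NOL10 peak too (1.34, limma adjusted p-value 0.0137). IFNα lowered peaks at LINC01365 and LINC01170 by 1.30 and 1.27, with adjusted p-values of 0.0499 and 0.0481 by limma, and OSM lowered both as well (-1.18 and -1.29, limma adjusted p-values 0.0464 and 0.0194). Both of these calls were lost under several of the other settings tried.

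**Figure D5:**
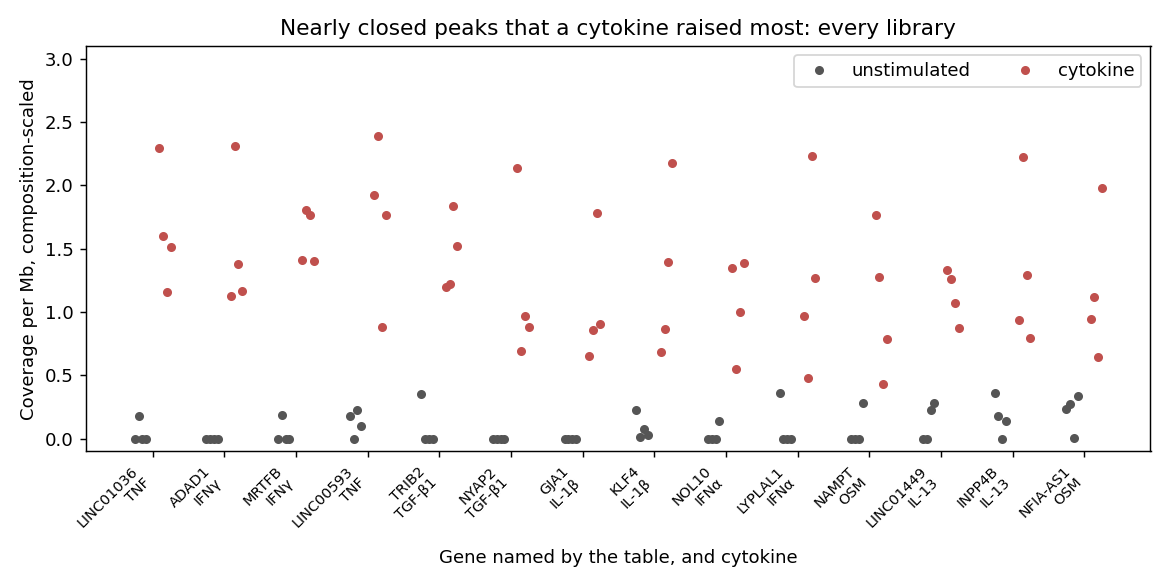
Composition-scaled coverage per Mb in each of the 4 unstimulated (grey) and 4 cytokine (red) libraries for the 2 nearly closed peaks that each of 7 cytokines raised most, ordered by log2 change. The groups do not overlap in any of the 14, by the way they were picked, and all unstimulated values lie at or below 0.361.

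Of the tested nearly closed peaks, 984 were called for 1 cytokine, 43 for 2 and 9 for 3, and 60644 (98.3%) for none, against 88.2% of all tested peaks called for none. Those called for 2 or more were 5.02% of the nearly closed peaks called at all and 36.5% of all peaks called at all. A peak raised by several cytokines was less likely to be chosen, so this difference is partly built into the choice. It says nothing of how particular the changes are to 1 cytokine. By class, the 551 raised by TGF-β1 were 9 promoter, 20 exonic, 271 intronic and 251 distal peaks, and the 175 lowered by OSM were 8, 7, 88 and 72. The 73 raised by IFNγ were 1, 1, 46 and 25, and the 75 raised by TNF 1, 6, 41 and 27. In raised peaks the highest treated group mean was 1.89 coverage per Mb with IFNγ, 1.81 with TNF, 1.70 with TGF-β1 and 1.43 with IL-1β. These lie under the mean of 2.45 over all peaks, but the choice of peaks limits them. Each peak was chosen for a low mean over all libraries, the treated ones included, so a peak raised further could have been left out. How far a cytokine can raise a closed site was therefore not tested.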

How the data were processed

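ATAC-seq was performed on nuclei of Ccd18-Co cells in 44 libraries, grouped by the treatment in the labels. The authors aligned paired-end reads to hg38 with the ENCODE ATAC-seq pipeline and called bulk peaks of varying length with MACS2, which the submitters' processing notes also name. The deposited peaks are instead all 500 bases wide, as are the ArchR peaks of the study's single-cell ATAC-seq, so they may be that set and not peaks called in these libraries. The deposited values are signal: the sum of read coverage in a 500-base peak, not scaled to library size, so they are not read counts and edgeR, which the study's methods name, could not be used. How the peaks of the table were chosen, whether starts count from 0 or 1, and whether replicates were separate cultures are not given in the sources used here, so p-values measure only the spread between these libraries, which may be technical. Starts were read as counting from 1. Coverage follows whole reads rather than transposase cut sites, and the low peaks rest on few reads, for which counting error is large.

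Each column was divided by its sum in Mb. A composition factor, the trimmed mean of log ratios (30% and 5% trimmed) to the geometric mean library over the 148332 peaks covered in all libraries, was added for the tests only. limma 3.58.1 in R 4.3.3 (lmFit, eBayes with trend, all 44 libraries, group as the only term) was used on log2(value + 0.5) for peaks with log2 mean coverage above -3, and was tested on simulated data first. Sequence features, exons and start sites come from the hg38 sequence and GENCODE v44. All 407383 peaks lay inside the hg38 chromosomes, and 99.5% of promoter peaks lay within 2 kb of a GENCODE start, against 22.2% of the rest. Strings were searched on both strands of the whole peak. The rest used pandas 2.3.3, numpy 2.4.6 and scipy 1.17.1.

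The peaks and the marker, string and gene lists were chosen with earlier results of these data known. Named peaks were, per cytokine, the 2 raised and 2 lowered with the largest change and no overlap between the 4 treated and 4 unstimulated libraries. Named genes were the 10 with most nearly closed peaks, and per marker list the 2 with most and those with a nearly closed promoter. Other genes were named after their values were seen. Of the marker genes, CDX2, CEACAM5, CD3G, GZMA, NKG7, AIF1 and TPSB2 were not analysed here, and some genes and sequences that the rule names are not reported here. Alternatives changed the pseudocount, scaling, filter, libraries, weights, threshold and gene assignment.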

Additional observations from a re-analysis of the deposited data

Results flagged for a closer look

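In 20 of 75 groups of 4 libraries examined, 1 library lay far from the other three by Dixon's ratio of its gap to the group's range. Chance flags about 1 group in 20, and in peaks where most libraries have no coverage a single library with few reads is flagged by construction. The share of coverage in nearly closed peaks was 2.31% in unstimulated replicate 4, against 1.99% to 2.02% in the others, and 1.73% in TNF replicate 4, against 1.88% to 1.91%. The share of nearly closed peaks without coverage was 13.0% in IL-13 replicate 4, against 37.1% to 41.2%, and 13.6% in TNF replicate 4, against 29.0% to 31.6%. These 2 libraries had the largest totals of their groups, 656.1 Mb and 726.6 Mb.

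Among named peaks, the only unstimulated library with coverage had 0.182 coverage per Mb at LINC01036, 0.190 at MRTFB, 0.136 at NOL10, 0.358 at LYPLAL1, 0.284 at NAMPT and 0.353 at TRIB2. The only treated library with coverage had 0.157 at NDFIP1 and 0.337 at LINC01139 with TNF, 0.302 at LRRC4C and 0.153 at MIR1302-6 with IL-1β, 0.441 at LINC01139 with IFNγ, 0.137 at both LRRC4C and OTOF with OSM, 0.449 at NDFIP1 with TGF-β1 and 0.0878 at MEF2A with IL-13. At LINC01170 IFNα replicate 3 had 0, against 0.194 to 0.220 in the other three.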

How the results depend on the processing

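Of 28 named peaks under 503 combinations of peak and setting, 441 kept the call, 62 lost it and none changed sign, and 16 peaks were called under every setting run for them. The losses were at the lowered IFNα peaks LINC01365 (13 settings) and LINC01170 (12), at NFIA-AS1 with OSM (9) and at 9 others in 2 to 5 settings each.

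Counts of called nearly closed peaks moved by over 1.5 times under these settings. Limma's array quality weights gave 222 for TNF, 141 for IFNγ and 1161 for OSM. A pseudocount of 0.25 gave 55 for IFNγ and 350 for TGF-β1. A filter above log2 -2 gave 7 for IFNα. Using only the 8 libraries compared gave 692 for OSM, 3 for IFNα, 8 for IL-13 and 209 for TGF-β1. The composition factor over all tested peaks, chosen after the data were seen, gave 310 for OSM (178 of them called in both) and 279 for TGF-β1 (277 in both). Leaving out 1 library gave 81 to 127 for TNF, 47 to 96 for IL-1β, 45 to 64 for IFNγ, 3 to 23 for IFNα, 262 to 493 for TGF-β1, 35 to 172 for OSM, 8 to 43 for IL-13, 0 to 6 for IL-6, 0 to 1 for IL-17A and 0 to 1 for IL-22. The causes were not tested.

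The titles share replicate numbers, but same-numbered libraries hardly deviated together. Over 220 pairs the correlation averaged 0.0038, against -0.0013 for pairs of different numbers, and none of the 220 exceeded 0.1. Even so, 23 of 44 libraries correlated best with their own number, more than an even draw among the 4 numbers would give. Adding the replicate number as a block gave 150 for TNF, 87 for IL-1β, 573 for TGF-β1, 182 for OSM, 92 for IFNγ, 36 for IL-13, 12 for IFNα and 0 for IL-6, IL-17A and IL-22, which changed no count by over 1.5 times.

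A threshold of 0.3 kept 21200 peaks (promoter 1.34%, exonic 4.62%, intronic 54.6%, distal 39.4%), one of 0.5 kept 110714 (promoter 2.02%, intronic 53.3%), and the median over libraries in place of the mean 96712 (promoter 1.89%, intronic 53.3%). The unstimulated libraries alone gave 71921, with 67.9% of the main set among them (promoter 2.14%, exonic 4.65%, distal 39.3%).

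Marker shares at a threshold of 0.3, where all peaks had 5.20%, were epithelial 5.24%, T and NK 3.50%, B and plasma 5.00%, myeloid 2.65%, mast cell 4.88%, endothelial 6.55%, glial 25.2%, neuronal 4.42%, smooth muscle 2.27%, pericyte 4.90%, fibroblast 3.99% and all-cell 0.769%. At 0.5, where all peaks had 27.2%, they were epithelial 23.1%, T and NK 21.5%, myeloid 21.9%, mast cell 34.1%, endothelial 35.6%, glial 64.6%, neuronal 32.7%, smooth muscle 17.9%, pericyte 21.1%, fibroblast 16.6% and all-cell 10.8%. By the nearest GENCODE start they were 8.16% for epithelial, 6.73% for smooth muscle and 6.70% for fibroblast genes. Without the gene with the most peaks they were 8.08% for epithelial, 16.4% for endothelial and 15.8% for glial genes. Without the gene with the most nearly closed peaks, tried after the data were seen, they were the same for these lists and 6.80% for smooth muscle. The share of coverage in nearly closed peaks, with 1 library left out, was 2.00% to 2.11% unstimulated, 2.05% to 2.30% with IL-1β, 1.82% to 1.94% with IL-6, 1.77% to 1.98% with IL-13, 1.85% to 2.06% with IL-17A, 1.57% to 1.75% with IL-22, 1.80% to 2.33% with IFNα, 1.97% to 2.04% with IFNγ, 2.85% to 3.13% with TGF-β1, 1.83% to 1.89% with TNF and 0.948% to 1.06% with OSM.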
